A study of Homo sapiens with 12 samples.

Results

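The comparison described here is the effect of ipatasertib in cells already held in tazemetostat: 3 libraries of cells given both drugs (the combination) against 3 libraries of cells given tazemetostat alone, 6 of the 12 libraries of the series. All genes were included, and the rows of the count tables that name no gene were set aside. The cells were MDA-MB-468, a breast cancer line without hormone receptors or HER2 amplification (triple-negative) and of basal type, which carries an amplified EGFR gene, and their polyadenylated RNA was sequenced. Combination cells received tazemetostat at 5 µM from day -5 and, on day 0, ipatasertib at 5 µM with tazemetostat, and tazemetostat cells received tazemetostat at 5 µM from day -5 without ipatasertib. Ipatasertib cells and DMSO cells, with and without ipatasertib at 5 µM but with no tazemetostat, were used to show where the effect differs. All cells were passaged on day -3 and seeded on day -1, were treated on day 0 in medium with 2% serum, and were collected 24 h later. Each group holds libraries A, B and C. Whether the letters mark separate cultures is not stated in the labels. The p-values therefore measure only how far these libraries spread, which can be technical, and all results are of a single line at a single dose and time.

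Ipatasertib binds the active site of the kinase AKT. Active AKT phosphorylates FOXO transcription factors and holds them in the cytoplasm, and it drives lipid synthesis, glycolysis and growth through mTORC1 and SREBP. When AKT is blocked, FOXO factors enter the nucleus and activate genes that include receptors and adaptors upstream of PI3K, which is known as feedback relief. Tazemetostat inhibits EZH2, the enzyme of the Polycomb complex PRC2 that places the repressive methyl marks on lysine 27 of histone H3, and in breast epithelium PRC2 takes part in holding cell identity.

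FOXO factors bind a short element, GTAAACA, and the promoters of the FOXO target list that hold it are shown here because those genes rose in the comparison. The window searched was 250 bases before to 50 bases after each gene's start, in RefSeq on GRCh38.p14, on both strands. Of 29 tested FOXO targets, 25 matched a window by symbol, and 4 of their 38 windows held the element, as did 3.42% of all 35116 windows. FBXO32, GADD45A, PINK1 and C10orf10 had no window. The element is in capitals, written TGTTTAC where it lies on the other strand, and the bases run 5′ to 3′ on the gene's strand.
YPEL3: ctgggctcggtGTAAACAagtccaggcgc
PIK3IP1: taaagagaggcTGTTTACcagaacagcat
FOXO4: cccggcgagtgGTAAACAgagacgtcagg
TRIB2: tTGTTTACctccccggccg
The YPEL3 stretch is chr16:30096196-30096224 on the minus strand, with the element from position 1 of the annotated transcript start. The PIK3IP1 stretch is chr22:31292455-31292483 on the minus strand and its element begins at position 17, and the FOXO4 stretch is chrX:71095863-71095891 on the plus strand with the element at position 24. The TRIB2 stretch is chr2:12716686-12716704 on the plus strand, with the element at position -249. These matches describe the letters in the windows and do not show binding. The sterol element CACCCCAC, bound by SREBP, was in 1 of 21 windows of the cholesterol synthesis list, that of SREBF2, and in 2.79% of all windows.

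Reads counted in genes numbered 12981622 to 17948209 per combination library and 19023947 to 26070000 per tazemetostat library, so 3 counts in a library correspond to 0.166 to 0.227 and to 0.112 to 0.157 CPM, the count scaled to a common library size. The A libraries differed from the B and C libraries by more than those differed from each other: comparing the counts of A with those of another library gave a chi-square over its degrees of freedom of 8.67 to 9.37 in the combination and 9.28 to 15.5 with tazemetostat, against 3.61 and 3.6 between B and C. Several counts that move with the A libraries are given with and without them, but not all such counts. Reads outside counted features or in more than 1 feature were 27.8%, 26.6% and 25.9% of all counted reads in combination libraries A, B and C, against 21.5%, 24.6% and 22.4% in the tazemetostat libraries, and each combination library lay above each tazemetostat library. The difference was 3.94 percentage points, with an exact two-sided permutation p of 0.1, the smallest that 3 against 3 libraries allow. The part of this difference in the gene results was not tested. Epithelial markers were present at high levels in the tazemetostat libraries, with means of 1658 CPM for the luminal keratin KRT8, 1022 for the basal keratin KRT5 and 1248 for EGFR. Of 10 fibroblast markers, 6 averaged under 1 CPM in the combination libraries and 7 in the tazemetostat libraries, and their summed level was 34.2 to 37.1 and 30.1 to 33.4 CPM. The leukocyte list of 10 summed to 62.4 to 72.4 CPM in the combination and 57.1 to 64.5 CPM with tazemetostat, nearly all of it CD14. Of its members, 6 had no read in the combination libraries, among them CD3E and LYZ, and 8 averaged under 1 CPM in each group. The 9 endothelial markers summed to 27.4 to 30.6 and 22.1 to 27 CPM, led by KDR.

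Ipatasertib on top of tazemetostat changed a large share of the measured genes. By edgeR's quasi-likelihood test at a Benjamini-Hochberg adjusted p under 0.05, 3374 of 14571 tested genes were higher in the combination (23.2%) and 3373 were lower (23.1%). Changes of at least 1 on the log2 scale were fewer, 590 higher (4.05%) and 308 lower (2.11%). Of the 590, 239 (40.5%) averaged under 1 CPM with tazemetostat, and of the 308, 129 (41.9%) averaged under 1 CPM in the combination. The median log2 fold change over all tested genes was 0.002. The shares of 23.2% higher and 23.1% lower over all genes are the background for each list count of this comparison below. In RNA from whole cultures, fewer cells of a type and less RNA per cell cannot be told apart.

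**Figure D1:**
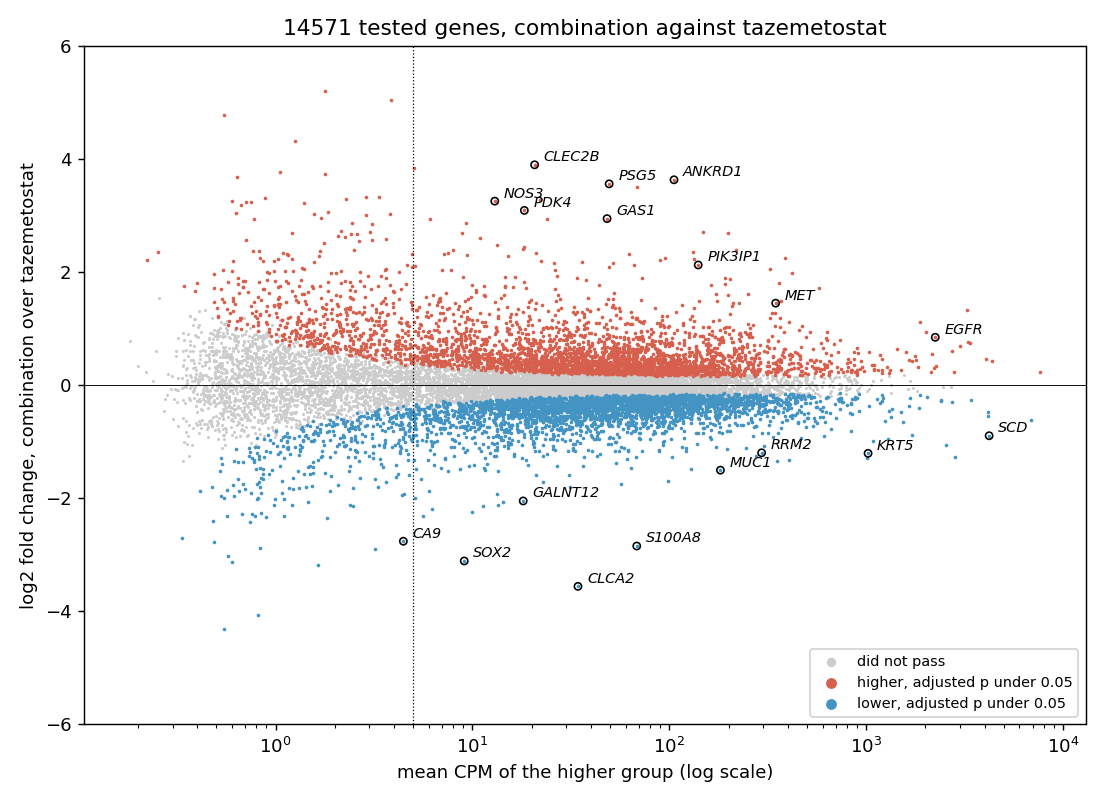
Each point is 1 of 14571 tested genes; the horizontal axis is the mean CPM of the higher group on a log scale and the vertical axis the log2 fold change of the combination over tazemetostat. Red and blue points are higher and lower at adjusted p under 0.05, the dotted line marks 5 CPM, 1 gene lies outside the axes, and CLEC2B (3.90) and CLCA2 (-3.56) lie at the ends among the labelled genes.

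Most of the tested genes that FOXO factors activate rose. In the FOXO target list, 22 of 29 tested members were higher and 2 were lower, with a median log2 fold change of 0.70, against 23.2% and 23.1% of all genes. PIK3IP1, which restrains PI3K, had 153, 133 and 136 CPM in combination libraries A, B and C, against 29.1, 34.4 and 32.7 CPM in the tazemetostat libraries. Every combination library was above every tazemetostat library (log2 fold change 2.13 ± 0.085 SE, adjusted p = 1.16e-14 in edgeR). The adaptor IRS2, which docks at the receptors of insulin and IGF1, stood at 131, 147 and 124 CPM in the combination and 28.9, 27.1 and 29.1 CPM with tazemetostat. Here too the groups were far apart (2.24 ± 0.077 SE, adjusted p = 1.28e-15). PDK4, a kinase that inhibits pyruvate dehydrogenase, reached 16.8, 19.5 and 18.7 CPM in the combination, against 2.04, 2.13 and 2.25 CPM with tazemetostat. Its log2 fold change was 3.09 ± 0.13 SE (adjusted p = 1.52e-14). The other large rises on the log2 scale were in C10orf10, a FOXO target also called DEPP (2.24), YPEL3 (2.12), KLHL24 (1.37) and the cyclin gene CCNG2 (1.03). FBXO32, an atrophy ubiquitin ligase, rose by 0.95, CITED2 by 0.92 and the pseudokinase gene TRIB2 by 0.82. Of the FOXO genes, FOXO4 (0.94) and FOXO1 (0.33) rose, and FOXO3 was at 0.04 (adjusted p = 0.572). The rise of FOXO1 lost the threshold when tazemetostat library B was left out (adjusted p = 0.0538). The 2 members that fell were the cell cycle inhibitor CDKN1A (-1.12) and the stress gene GADD45A (-0.30), which p53 also controls. Without combination library C, 4 members were lower.

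Genes upstream of AKT moved in both directions. Of 24 tested receptor tyrosine kinase genes, 10 were higher and 4 lower, with a median log2 fold change of 0.11. Without combination library B, 2 were lower. MET, the receptor of hepatocyte growth factor, had 317, 352 and 371 CPM in the combination, against 138, 120.3 and 123 CPM with tazemetostat (log2 fold change 1.45 ± 0.074 SE, adjusted p = 8.54e-13). The insulin receptor gene INSR averaged 118 ± 1.61 CPM in the combination and 56.4 ± 1.01 CPM with tazemetostat (SD, n = 3 each), and IGF1R averaged 118 ± 1.51 CPM in the combination and 54.9 ± 3.84 CPM with tazemetostat. Both rises exceeded the spread of the libraries (log2 fold changes 1.06 and 1.10, adjusted p = 1.99e-11 and 2.63e-11). EGFR, amplified in this line, still rose by 0.85 ± 0.087 SE on the log2 scale, and the log2 fold change was 0.82 for ERBB3 and 2.11 for AXL. TYRO3 (-0.64), FGFR4 (-0.76) and EPHB4 (-0.24) fell. The fall of EPHB4 was called in 16 of 20 alternative fits. Among 23 genes of the PI3K and AKT pathway itself, 11 were higher and 4 lower (median 0.15). AKT1 was lower, with 130.2, 123 and 109.7 CPM in the combination and 166, 184 and 182 CPM with tazemetostat (-0.55 ± 0.072 SE, adjusted p = 1.91e-06), and AKT2 fell as well (log2 fold change -0.30). PIK3R1, the regulatory subunit of PI3K, averaged 56.2 ± 3.94 CPM in the combination against 122 ± 6.94 CPM with tazemetostat (-1.12 ± 0.071 SE, adjusted p = 2.75e-11), while the adaptor gene GAB2 rose (0.97).

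Target genes of the MAPK pathway mostly rose. Of 23 tested members, 15 were higher and 2 lower, and the median log2 fold change of 0.92 was the highest of the 34 lists. The ETS factor gene ETV5 had 24.9, 26.8 and 26.3 CPM in the combination and 6.13, 6.5 and 4.87 CPM with tazemetostat (2.15 ± 0.11 SE, adjusted p = 9.39e-13), and ETV4 (1.94) and ETV1 (1.39) rose as well. Several feedback inhibitors of the pathway rose, with log2 fold changes of 1.55 for the phosphatase gene DUSP5, 1.12 for DUSP6, 1.39 for SPRY2, 0.93 for SPRY4 and 0.92 for SPRED2. IER3, an early response gene, averaged 332 ± 37.1 CPM in the combination against 137 ± 6.03 CPM with tazemetostat (1.27). The 2 that fell were MYC (-0.40) and DUSP4 (-0.21), and DUSP4 lost the threshold without combination library C. The cyclin gene CCND1 had 121, 113 and 109.9 CPM in the combination and 112, 119 and 117 CPM with tazemetostat, and these overlap (log2 fold change -0.01, adjusted p = 0.872). Immediate early genes gave 13 higher and 4 lower of 26 (median 0.36), with the antiproliferative gene BTG2 at 23.6 ± 1.2 CPM in the combination against 11.6 ± 0.519 CPM with tazemetostat (1.03).

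Targets of YAP, TEAD and SRF, factors that answer to cell shape and contact, held some of the large rises. In that list 11 of 21 tested members were higher and 4 lower, with a median of 0.42. ANKRD1 had 105, 113 and 99 CPM in the combination libraries, against 8.17, 8.55 and 8.77 CPM in the tazemetostat libraries. This gap is many times the spread within either group (3.63 ± 0.092 SE, adjusted p = 1.94e-17). CTGF had 123, 139 and 135 CPM in the combination and 27.8, 26 and 23.9 CPM with tazemetostat (2.35 ± 0.075 SE, adjusted p = 2.9e-16). CYR61 (0.75), CRIM1 (1.49) and the caveolin gene CAV1 (1.71), which is in the basal list, also rose.

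Over all genes, the 12 largest rises among genes with at least 5 CPM and no overlap of libraries were led by CLEC2B, a C-type lectin ligand of a natural killer cell receptor, with 19.5, 21.8 and 20.8 CPM in the combination and 1.89, 1.01 and 1.37 CPM with tazemetostat (3.90 ± 0.19 SE, adjusted p = 5.75e-13). Of these 12, 4 were pregnancy-specific glycoprotein genes, PSG1 (3.85), PSG5 (3.56), PSG4 (2.94) and PSG9 (2.94). These are near-identical copies, so reads can be lost or shared between them and their single values are uncertain. TFPI2, an inhibitor of proteases in the matrix, had 65.8, 70.8 and 67.9 CPM in the combination, against 7.13, 5.15 and 5.99 CPM with tazemetostat (3.50). The other members were ANKRD1, PDK4, the endocytic adaptor gene STON1 (3.28), the endothelial nitric oxide synthase gene NOS3 (3.25), the growth arrest gene GAS1 (2.95) and the actin-like gene ACTBL2 (2.87), which can share reads with other actins. The largest falls were led by CLCA2, a membrane protein of stratified epithelia, with 2.66, 2.88 and 3.2 CPM in the combination and 38.2, 29.4 and 35.5 CPM with tazemetostat (-3.56 ± 0.13 SE, adjusted p = 2.03e-15). SOX2 and S100A8 followed and are described below with their groups, as is ELF5. The remaining falls were in the keratin gene KRT38 (-2.31), RCSD1 (-2.25), the vitamin C transporter gene SLC23A1 (-2.19), the lipid transporter gene MFSD2A (-2.13), the glutathione-degrading enzyme gene GGT1 (-2.13), STAC2 (-2.08), the glycosyltransferase gene GALNT12 (-2.05) and the interferon-induced GTPase gene GBP1 (-1.92).

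**Figure D2:**
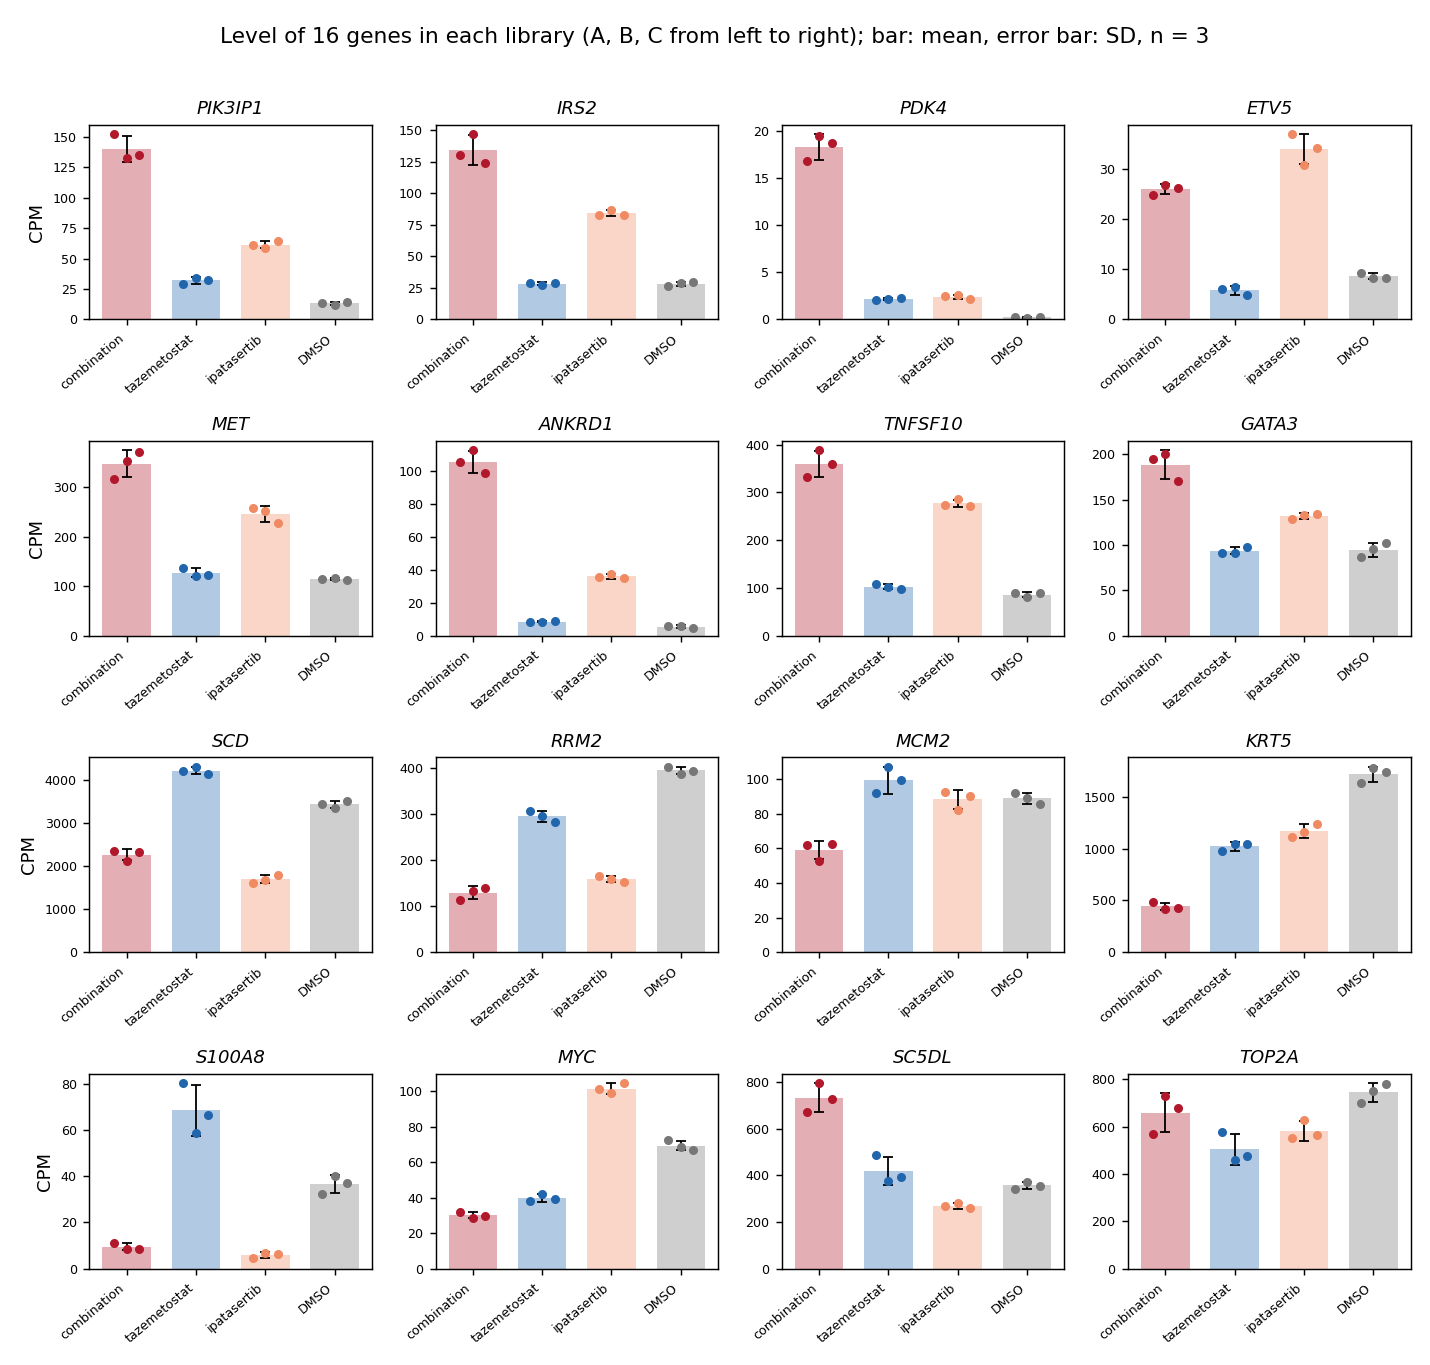
CPM of 16 genes in each library, with 1 panel per gene; groups run combination, tazemetostat, ipatasertib and DMSO, bars are means, error bars SD (n = 3) and points the libraries. PIK3IP1 reached 153, 133 and 136 CPM in the combination, against 29.1, 34.4 and 32.7 CPM with tazemetostat.

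Lipid synthesis genes mostly fell. Of 18 fatty acid synthesis genes 10 were lower and 1 higher (median -0.32), and of 26 cholesterol synthesis genes 19 were lower and 1 higher (median -0.36). The cholesterol list had 2 higher without the A libraries, and the fatty acid list 2 higher without ipatasertib A and none without combination B or tazemetostat C. The fatty acid list had 14 lower without the A libraries. SCD, the desaturase that makes oleate, had 2342, 2122 and 2326 CPM in the combination, against 4199, 4302 and 4133 CPM with tazemetostat, with no overlap (-0.90 ± 0.062 SE, adjusted p = 1.13e-10). SREBF1, which encodes a factor that drives fatty acid synthesis genes, had 95.8, 77.7 and 79.4 CPM in the combination and 142, 171 and 168 CPM with tazemetostat (-0.92 ± 0.092 SE, adjusted p = 3.63e-08). FASN (-0.81) and ACLY (-0.64), which make palmitate and its acetyl-CoA, fell with it. In the cholesterol pathway the largest falls were in MVD (-0.85), LSS (-0.74) and MVK (-0.70). SREBF2, the SREBP gene in the cholesterol list, did not pass (-0.113, adjusted p = 0.243 in edgeR). INSIG1, which holds the sterol sensor SCAP back, averaged 224 ± 8.49 CPM in the combination against 309.9 ± 27.6 CPM with tazemetostat (-0.47 ± 0.072 SE, adjusted p = 1.56e-05). The 1 member that rose was SC5DL, a sterol desaturase of the last steps, with 673, 796 and 728 CPM in the combination and 488, 377 and 391 CPM with tazemetostat (0.81 ± 0.084 SE, adjusted p = 7.74e-08).

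Genes of sugar use and respiration mostly fell as well. Glycolysis gave 18 lower and 2 higher of 23 (median -0.48). ALDOA, an aldolase, averaged 669 ± 52.2 CPM in the combination against 1297 ± 51.5 CPM with tazemetostat (-0.96 ± 0.067 SE, adjusted p = 1.8e-10), and PKM2 (-0.88), TPI1 (-0.80) and the lactate exporter gene SLC16A3 (-0.78) were lower too. Genes induced by hypoxia gave 10 lower and 2 higher of 19 (median -0.49). The carbonic anhydrase gene CA9 had 0.665, 0.379 and 0.906 CPM in the combination and 3.83, 4.85 and 4.7 CPM with tazemetostat, without overlap and at low levels (-2.76 ± 0.24 SE, adjusted p = 4.4e-09). The collagen hydroxylase genes P4HA1 (-0.79) and P4HA2 (-0.76) fell, and ADM, which encodes the peptide adrenomedullin, rose (0.81). Without the A libraries 5 hypoxia genes were higher and 11 lower. Of 28 nuclear genes of oxidative phosphorylation 21 were lower (median -0.24), among them the ATP synthase gene ATP5G1 (-0.94), the complex I genes NDUFA9 (-0.64) and NDUFB3 (-0.57), and CYC1 of complex III (-0.57).

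**Figure D3:**
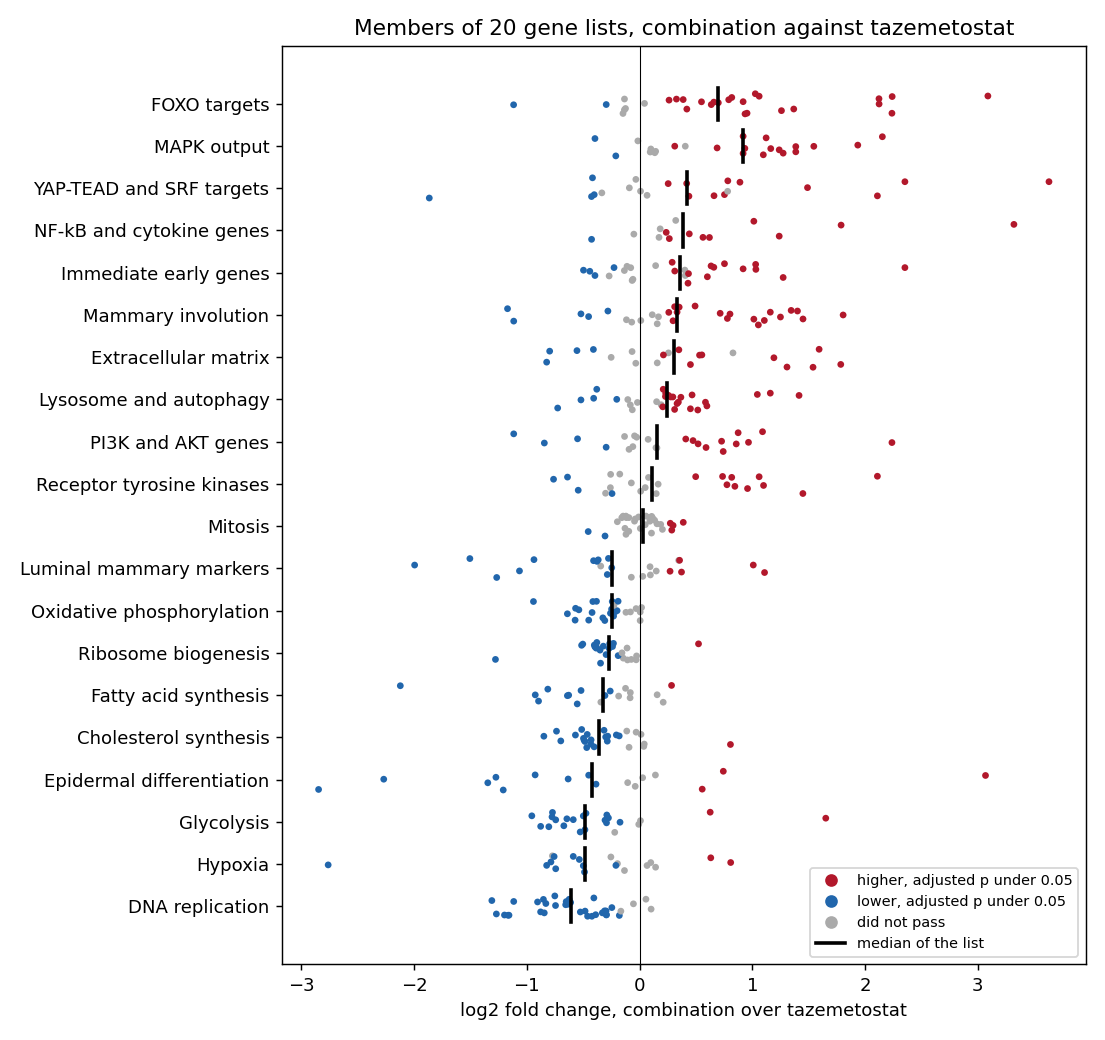
Each point is a tested member of 1 of 20 gene lists and the horizontal axis is its log2 fold change in the combination over tazemetostat; red and blue points are higher and lower at adjusted p under 0.05, grey points did not pass, and the black bar is the list's median. MAPK output has the highest median (0.92) and DNA replication the lowest (-0.61).

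Most DNA replication genes fell, while most mitosis genes did not pass. In the replication list 31 of 35 tested members were lower, with a median of -0.61. RRM2, a subunit of ribonucleotide reductase, had 113, 133 and 139.7 CPM in the combination, against 307, 294 and 282 CPM with tazemetostat (-1.20 ± 0.073 SE, adjusted p = 1.92e-11). E2F1 (-1.31), CCNE2 (-1.27), CCNE1 (-1.17) and the origin licensing gene CDC6 (-1.16) fell by more than 1 on the log2 scale. The 6 subunits of the MCM helicase, which unwinds DNA at the fork, all fell: MCM2 had 61.9, 52.9 and 62.3 CPM in the combination and 91.7, 107 and 99.3 CPM with tazemetostat (-0.75 ± 0.079 SE, adjusted p = 9.36e-08), and the others lay between -0.90 for MCM6 and -0.46 for MCM7. Of 30 mitosis genes 4 were higher and 2 lower, and the median log2 fold change was 0.03. TOP2A, a topoisomerase of late S phase and mitosis, had 571, 732 and 677 CPM in combination libraries A, B and C, against 579, 459 and 476 CPM in the tazemetostat libraries. Combination A lay below tazemetostat A and combination B and C lay above all tazemetostat libraries, so the groups overlap through the A libraries (0.39 ± 0.09 SE, adjusted p = 0.00129). CENPF (0.30), TTK (0.29) and CCNB2 (0.27) were the others that rose, and FOXM1 (-0.31) and MKI67 (-0.46) fell. The rise of TTK was called in 15 of 20 alternative fits. Without the A libraries of all groups 13 mitosis genes were higher and 6 lower. Leaving out only combination A or only tazemetostat A gave 8 higher, and leaving out combination C gave 5 lower. The replication count hardly moved, with 32 lower without the A libraries. In the list of CDK inhibitors and D cyclins 4 of 15 were higher and 6 lower (median -0.01), against 23.2% and 23.1% of all genes. CDKN1B, the inhibitor p27 and a FOXO target, had 63.6, 66.1 and 66.3 CPM in the combination and 45.6, 41.4 and 47 CPM with tazemetostat (0.55 ± 0.074 SE, adjusted p = 2.54e-06), CDKN1C rose (0.64), and CDKN1A, the inhibitor p21, averaged 27.2 ± 0.974 CPM in the combination against 59 ± 7.51 CPM with tazemetostat (-1.12 ± 0.12 SE, adjusted p = 7.89e-08).

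Most ribosome biogenesis genes and most lysosome genes changed, in opposite directions. Ribosome biogenesis gave 17 lower and 1 higher of 25 (median -0.27). NOP2 (-0.51) and RRS1 (-0.50) fell, and the nucleolar chaperone gene NPM1, which has many processed copies that can take its reads, rose (0.52). POLR1A, the large subunit of RNA polymerase I, fell (-0.40) but lost the threshold in 2 of the 12 fits that leave out a library, with an adjusted p of up to 0.0579. Amino acid and ATF4 genes gave 13 lower and 6 higher of 30 (median -0.14), and 7 lower without combination library B. The transporter gene SLC38A2 rose (0.98), as did NUPR1 (0.65), while SLC1A4 (-0.61) and PYCR1 (-0.57) fell. Stress and heat shock genes gave 4 higher and 6 lower of 20 (median -0.06), shares near the 23.2% and 23.1% of all genes, and 8 higher and 7 lower without the A libraries, with 7 higher when only tazemetostat A was left out. XBP1, a regulator of the unfolded protein response, averaged 245 ± 7.2 CPM in the combination against 469 ± 5.38 CPM with tazemetostat (-0.94 ± 0.06 SE, adjusted p = 3.56e-11), and SDF2L1 (-0.72) and HSPB1 (-0.72) fell, while DDIT3 rose (0.51). Of 30 lysosome and autophagy genes 19 were higher and 5 lower (median 0.24). The protease gene CTSF had 122, 108 and 117 CPM in the combination and 40.4, 46 and 44.1 CPM with tazemetostat (1.41 ± 0.072 SE, adjusted p = 7.84e-13), and CTSL1 (1.16) and the autophagosome gene GABARAPL1 (1.05) rose. TFEB, which encodes a factor that activates such genes, fell (-0.73).

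Mammary identity genes did not move as a block. Luminal markers gave 5 higher and 11 lower of 23 (median -0.25) and basal markers 10 higher and 8 lower of 27 (median 0.14). The shares of all genes were 23.2% and 23.1%. GATA3, the master factor of luminal cells, had 195, 201 and 171 CPM in the combination libraries, against 91.8, 91.3 and 98.3 CPM in the tazemetostat libraries. Its lowest combination library was above its highest tazemetostat library (1.01 ± 0.074 SE, adjusted p = 3.75e-10). The luminal progenitor gene ALDH1A3 rose too (1.11). Other luminal genes fell: MUC1 had 70.0, 59.8 and 62.1 CPM in the combination and 172, 186 and 188 CPM with tazemetostat (-1.50 ± 0.072 SE, adjusted p = 3.02e-13), and SPDEF (-1.27) and ELF5, a factor of the secretory lineage (-2.00), were also lower. Of the basal keratins, KRT5 had 484, 421 and 423 CPM in the combination and 976, 1044 and 1046 CPM with tazemetostat (-1.21 ± 0.069 SE, adjusted p = 6.59e-12), and KRT16 (-1.17), KRT14 (-0.43) and KRT17 (-0.28) fell. LAMB3, a laminin chain of the basement membrane, rose (0.97). KRT8 (-0.37) and the adhesion gene CDH1 (-0.38) were lower, KRT18 was higher (0.27) and EPCAM did not pass (adjusted p = 0.38). Epidermal differentiation genes gave 9 lower and 3 higher of 16 tested members (median -0.42). Another 10 of the 26 listed genes were not tested, among them LOR, KRT1 and DSG1. S100A8, a subunit of calprotectin, had 11.1, 8.49 and 8.57 CPM in the combination and 80.2, 58.4 and 66.4 CPM with tazemetostat (-2.85 ± 0.14 SE, adjusted p = 3.87e-13), and its partner S100A9 (-1.35), KRT10 (-1.27) and KLK6 (-0.93) fell. Keratin, S100A and KLK genes have close copies, which makes their counts uncertain. Milk and secretory genes gave 4 higher and 2 lower of 13 (median 0.12), against 23.2% and 23.1% of all genes. STAT5A (0.45), STAT5B (0.31) and MUC15 (0.60) were among the rises, and ELF5 (-2.00), also in this list, was among the falls. Of the 21 listed genes 8 were not tested, among them the milk protein genes CSN2, CSN3 and LALBA.

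Genes known from mammary involution, in which the gland shrinks back once suckling ends, mostly rose: 18 of 29 tested members were higher and 5 lower (median 0.33). TNFSF10, the death ligand TRAIL, had 333, 388 and 358 CPM in the combination, against 109, 101 and 98.7 CPM with tazemetostat, with no overlap (1.81 ± 0.071 SE, adjusted p = 9.93e-15). TIMP3, an inhibitor of matrix proteases, averaged 227 ± 9.26 CPM in the combination and 83.1 ± 3.06 CPM with tazemetostat (1.45), and the acute phase gene SAA1 (1.40) and the factor gene CEBPD (1.35) rose. The BCL-2 family gave 6 higher and 5 lower of 17 (median 0.18), against 23.2% and 23.1% of all genes. The BH3-only gene BBC3, or PUMA, had 14.5, 12 and 13 CPM in the combination and 6.34, 6.68 and 6.53 CPM with tazemetostat (1.01 ± 0.11 SE, adjusted p = 1.84e-07). BMF, another BH3-only gene, had 59.9, 54.9 and 60.5 CPM in the combination and 46.5, 55.8 and 53.6 CPM with tazemetostat, which overlap (0.17 ± 0.082 SE, adjusted p = 0.0978). BCL2L11, or BIM, likewise did not pass (-0.07 ± 0.084 SE, adjusted p = 0.525). BCL2 rose (0.44), and BAK1 (-0.53) and BAD (-0.62) fell. In the IL-6 family, whose receptors signal through STAT3, the shared receptor gene IL6ST had 164, 191 and 192 CPM in the combination and 115, 95.8 and 107 CPM with tazemetostat (0.78 ± 0.084 SE, adjusted p = 1.31e-07). The ligand gene LIF had 17.4, 13.8 and 13.6 CPM in the combination and 4.93, 8.63 and 8.4 CPM with tazemetostat, also without overlap (1.01 ± 0.15 SE, adjusted p = 7.59e-06). OSMR rose by 0.26 but lost the threshold in 2 fits that leave out a library (adjusted p up to 0.0913), and STAT3 did not pass (0.01 ± 0.063 SE, adjusted p = 0.899).

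NF-kB and cytokine genes gave 9 higher and 1 lower of 14 tested members (median 0.38), with 12 of the 26 listed genes too low to test. The adhesion gene ICAM1 (0.62), the macrophage growth factor gene CSF1 (0.56) and BIRC3 (0.44) rose. Of 30 interferon-stimulated genes 5 were higher and 9 lower (median -0.04), against 23.2% and 23.1% of all genes. IFIT2 (1.41) and IFIT3 (1.34) rose, while IFI44 (-0.79) and OAS3 (-0.57) fell. Of 19 MHC class I genes 3 were higher and 7 lower (median -0.20). Of these genes 11 were lower without combination library A, and 10 without the A libraries of all groups. The peptide transporter genes TAP2 (-0.73) and TAP1 (-0.53) and the chaperone genes CALR (-0.48) and PDIA3 (-0.48) fell. HLA-B, which has close copies, had 557, 486 and 495 CPM in the combination and 564, 584 and 559 CPM with tazemetostat, each combination library below each tazemetostat library, but the fit did not pass (-0.15 ± 0.069 SE, adjusted p = 0.0792). None of 9 tested MHC class II genes passed in edgeR or in DESeq2, and 2 were higher at an unadjusted p under 0.05.

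Of the genes known to be held down by Polycomb, SOX2 changed by a large step, but the list did not stand out by its counts. In the list of developmental Polycomb targets 5 of 25 tested members were higher and 8 lower (median -0.07), near the 23.2% and 23.1% of all genes, and 15 of the 40 listed genes were too low to test. SOX2, a stem cell factor, had 1.55, 0.455 and 0.975 CPM in the combination libraries, against 8.96, 7.99 and 10.3 CPM in the tazemetostat libraries. The groups did not overlap (-3.11 ± 0.24 SE, adjusted p = 8.98e-09), and SOX2 had no read in the ipatasertib or DMSO libraries. The homeobox genes IRX3 (-0.69), IRX5 (-0.62) and LHX2 (-0.71) fell by less than 1 on the log2 scale. Ipatasertib against DMSO lowered them too, by -0.66, -0.71 and -0.95. IRX3 averaged 166 CPM with tazemetostat and 229 CPM with DMSO, and IRX5 averaged 87.6 CPM with tazemetostat and 126 CPM with DMSO. Extracellular matrix genes gave 10 higher and 4 lower of 20 (median 0.30). The matrix protein gene TGFBI had 53.2, 54.8 and 60.6 CPM in the combination and 25.3, 21.7 and 21.2 CPM with tazemetostat (1.31 ± 0.093 SE, adjusted p = 2.25e-10). COL12A1 (1.19), THBS1 (1.59), which encodes thrombospondin, and the fibronectin gene FN1 (0.35) rose, LOX, a collagen crosslinker, fell (-0.82), and the basement membrane collagen gene COL4A1 fell (-0.41 ± 0.10 SE, adjusted p = 0.002). NOV, a secreted matrix protein, averaged 91.7 ± 3.01 CPM in the combination and 39.4 ± 4.4 CPM with tazemetostat (1.22 ± 0.083 SE, adjusted p = 9.52e-11), and the lysosomal glycoprotein gene GPNMB averaged 872 ± 22.1 CPM in the combination and 581 ± 19.5 CPM with tazemetostat (0.58 ± 0.06 SE, adjusted p = 5.01e-08). Of the 12 genes of PRC2 itself 1 was higher and 4 were lower (median -0.05), against 23.2% and 23.1% of all genes. Without the A libraries 3 were higher and 6 lower, with 2 higher when only combination A or only tazemetostat A was left out. EZH2, the target of tazemetostat, had 68.5, 77.7 and 79.2 CPM in the combination and 117, 117 and 105 CPM with tazemetostat (-0.59 ± 0.076 SE, adjusted p = 1.49e-06), RBBP4 fell (-0.33), and EZH1, the close relative of EZH2, rose (0.55 ± 0.11 SE, adjusted p = 0.0003). Of the markers of other cell types named above, PDGFRA (0.78) and KDR (0.46) rose and COL1A1 (-0.80) and ESAM (-0.74) fell.

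The same drug step without tazemetostat, ipatasertib against DMSO, shares no library with this comparison. It gave 3497 genes higher (24%) and 3367 lower (23.1%). Of the 6747 genes called with tazemetostat, 4093 (60.7%) were also called without it in the same direction, which is 59.6% of the 6864 called there, and 115 (1.7% and 1.68%) were called in opposite directions. Across the 14571 genes the log2 fold changes of the 2 steps had a Pearson r of 0.666 and a Spearman rho of 0.639, given as a description since genes are not independent. The difference between the steps was tested as an interaction, in which a positive value means a higher log2 fold change in the presence of tazemetostat. It was called for 869 genes above 0 (5.96%) and 875 below 0 (6.01%). These counts depend on the libraries, with 2605 above and 2847 below 0 when the A library of every group was left out, 412 and 262 without combination B, 357 and 319 without DMSO C, and 533 and 479 with the letter as a block. With library totals in place of TMM factors 33.6% of the called interactions were above 0, against 49.8% with TMM. Of the 1744 interactions called with all libraries, on which the following counts rest, 276 belonged to genes that were higher and 313 to genes that were lower with tazemetostat and were not called without it, and 669 to genes called only in the step without it. Genes that were higher in both steps rose by more with tazemetostat in 107 cases and by less in 83, and genes that were lower in both fell by more in 116 and by less in 51.

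The list counts of the 2 steps stand side by side here, without a test of a whole list. FOXO targets gave 22 of 29 higher (median 0.70) with tazemetostat and 19 (0.70) without it, MAPK targets 15 of 23 (0.92) and 15 (0.72), and lysosome genes 19 of 30 (0.24) and 17 (0.28). Glycolysis gave 18 of 23 lower (-0.48) with tazemetostat and 15 (-0.41) without it, and oxidative phosphorylation 21 of 28 (-0.24) and 23 (-0.30). Receptor kinases and the PI3K and AKT genes had lower medians with tazemetostat, 0.11 and 0.15, against 0.48 and 0.39 without it. Taken gene by gene, the median interaction was -0.22 for receptor kinases, with 5 of 24 called below 0 and 2 above. For the PI3K and AKT genes it was only -0.06, with 4 of 23 called below 0 and 1 above. Over all genes 6.01% were below 0 and 5.96% above. The PI3K and AKT count was 7 below and 3 above without the A libraries. With 1 library left out, it was 1 to 7 below and 1 to 3 above.

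**Figure D4:**
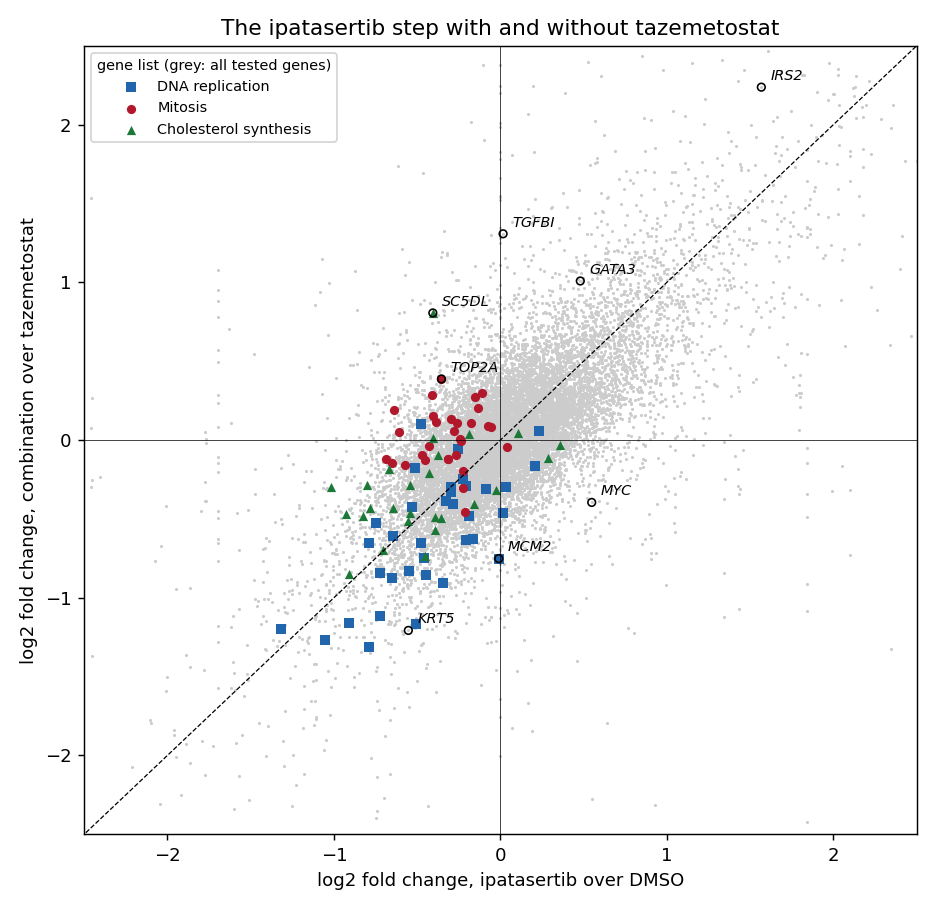
Each grey point is a tested gene; the horizontal axis is the log2 fold change of ipatasertib over DMSO and the vertical axis that of the combination over tazemetostat, with equality on the dashed line; 117 genes lie outside the axes. DNA replication genes (squares) have medians of -0.61 with and -0.45 without tazemetostat, and mitosis genes (circles) 0.03 and -0.29.

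Replication and mitosis genes parted in the interaction. Of 35 replication genes 12 had an interaction below 0 and 2 above, and of 30 mitosis genes 16 had one above 0, against 6.01% and 5.96% of all genes. The list medians of the log2 fold change were -0.61 with and -0.45 without tazemetostat for replication, and 0.03 and -0.29 for mitosis. MCM2 shows the first pattern: it averaged 59 ± 5.33 CPM in the combination against 99.4 ± 7.76 CPM with tazemetostat, and 88.3 ± 5.65 CPM with ipatasertib against 88.9 ± 3.25 CPM with DMSO (interaction -0.74 ± 0.11 SE, edgeR adjusted p = 0.000512). The other MCM genes had interactions of -0.56 (MCM6), -0.48 (MCM7), -0.46 (MCM3), -0.42 (MCM5) and -0.29 (MCM4), and CCNE1 (-0.66) and E2F1 (-0.52) were below 0 too. RFC3, a clamp loader subunit, was above 0 (0.58). TOP2A shows the second: ipatasertib libraries averaged 583 ± 41.5 CPM against 745 ± 39.9 CPM with DMSO, a log2 fold change of -0.35, where with tazemetostat it was 0.39 (interaction 0.74 ± 0.13 SE, adjusted p = 0.00137). CENPE (0.83), TTK (0.70), CDK1 (0.57), CCNA2 (0.51) and CCNB1 (0.50) had interactions above 0. Without the A libraries 18 replication genes were below and 5 above 0, and 22 mitosis genes were above and 1 below 0. With 1 library left out at a time, 6 to 13 replication genes were below 0, with 6 without combination B or tazemetostat B and 7 without tazemetostat C, ipatasertib C or DMSO C, and 11 to 22 mitosis genes were above 0. The calls of MCM4, MCM5 and CENPF were lost in at least 1 alternative fit.

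Other genes with large interactions spanned several groups. MYC had 101, 98.6 and 105 CPM with ipatasertib and 72.4, 68.5 and 67 CPM with DMSO, and rose there (0.55, adjusted p = 1.02e-06), whereas it fell with tazemetostat (-0.40), an interaction of -0.94 ± 0.10 SE (adjusted p = 1.41e-05). SC5DL averaged 269 CPM with ipatasertib and 357 CPM with DMSO, a log2 fold change of -0.41, against 0.81 with tazemetostat (interaction 1.21, adjusted p = 4.01e-06). Of 26 cholesterol genes 8 had an interaction above 0 and 2 below, against 5.96% and 6.01% of all genes. The cholesterol counts were 12 and 8 without the A libraries, where the counts over all genes were 2605 and 2847. With 1 library left out, 7 to 12 cholesterol genes were above and 0 to 5 below. STARD4 fell by less with tazemetostat (-0.30) than without it (-1.02). HMGCS1 (0.35), IDI1 (0.52), CYP51A1 (0.42) and INSIG1 (0.46) were among them, and the fall of IDI1 with tazemetostat (-0.28) lost the threshold without the A libraries. Of the receptor kinase genes, 5 had an interaction below 0, against 6.01% of all genes. They were TYRO3 (-0.65), FGFR1 (-0.50), EPHB4 (-0.49), DDR1 (-0.47) and PTK7 (-0.37), with log2 fold changes of 0.67 without and 0.17 with tazemetostat for FGFR1. Of 24 receptor kinase genes 7 were below 0 without the A libraries, 2 without combination B and 3 without tazemetostat B, and the calls of FGFR1, DDR1 and PTK7 were lost in at least 1 alternative fit. Of the FOXO targets, IRS2 rose by more with tazemetostat than without it (interaction 0.67 ± 0.11 SE, adjusted p = 0.000771), KLF6 (0.57) and SESN3 (0.60) had interactions above 0 as well, and FBXO32 rose by less (-0.34), a call lost in at least 1 alternative fit.

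Among identity genes, GATA3 rose to 132 CPM with ipatasertib, against 94.8 CPM with DMSO, a smaller step than with tazemetostat (interaction 0.53 ± 0.10 SE, adjusted p = 0.00378). KRT5 fell to 1171 CPM with ipatasertib, against 1718 CPM with DMSO, and fell further with tazemetostat (interaction -0.65 ± 0.096 SE, adjusted p = 0.000512). MUC1 (-0.63), SPDEF (-0.57), KRT16 (-0.53) and XBP1 (-0.44) also fell by more with tazemetostat, and ANKRD1 (0.92), TFPI2 (0.92), TIMP3 (0.61), CEBPD (0.99), IL6ST (0.59), BTG2 (0.72) and ADM (0.84) had interactions above 0. Of 20 matrix genes 4 were above 0, with and without the A libraries, against 5.96% of all genes in the main fit. The matrix count was 2 without combination B or C, tazemetostat B or C, ipatasertib C, or DMSO A or B. TGFBI averaged 7.22 ± 0.897 CPM with ipatasertib and 7.12 ± 0.722 CPM with DMSO, with a log2 fold change of 0.02 against 1.31 with tazemetostat (interaction 1.29 ± 0.15 SE, adjusted p = 3.83e-05), and FN1 fell without tazemetostat (-0.55) and rose with it (interaction 0.89). BMF rose without tazemetostat, to 22.8 CPM against 15.4 CPM with DMSO (0.57, adjusted p = 2.64e-05), and did not pass with it (interaction -0.40 ± 0.12 SE, adjusted p = 0.0371). That interaction was called in 11 of 19 alternative fits. NOV (-0.68) and CTSF (-0.55) rose by less with tazemetostat. The largest interactions above 0 among genes with at least 5 CPM in the highest of the 4 groups were in FKBP9L (2.05), a close copy of FKBP9 whose reads can be shared with it, BCAT1 (2.02), which starts amino acid breakdown, the semaphorin gene SEMA6A (2.00), NEXN (1.87), CLEC2B (1.63), C2CD4A (1.59), STON1 (1.40) and the mucin gene MUC6 (1.31). Several of these were near the floor in the step without tazemetostat: BCAT1 averaged 0.195 CPM with ipatasertib and 0.398 CPM with DMSO (interaction 2.02 ± 0.46 SE), SEMA6A 0.45 CPM with ipatasertib and 0.483 CPM with DMSO, and CLEC2B 0.573 CPM with DMSO, so their place in this order is uncertain. The largest below 0 were in SNCAIP (-1.56), RHBDL3 (-1.28), the glycosyltransferase gene MGAT5 (-1.28), GPR124 (-1.25), the calcium pump gene ATP2A3 (-1.21), the aldehyde dehydrogenase gene ALDH3A1 (-1.15), the histone gene HIST1H4C (-1.08) and the mucin gene MUC5B (-1.06). The calls of CLEC2B, MUC6 and HIST1H4C were lost in at least 1 alternative fit.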

How the data were processed

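Per the labels' protocols, RNA was isolated with the Qiagen RNeasy Plus kit, and Kapa Hyper Prep served for library construction. For each library the authors deposited a table of raw counts, 1 per gene symbol. STAR, SAMtools, HTSeq, DESeq2 and the build hg19 are named in the submitters' processing notes. Versions, annotation and strand setting were not given in the sources used, so overlapping and antisense genes are uncertain. A deposited table of normalized values was not used. Counts in genes made up 60.5% to 63.2% of all rows in the combination and 65.2% to 67.2% with tazemetostat, and rows that name no gene stayed out of library sizes and tests.

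Of 23228 genes, 3351 had no read and 14571 passed edgeR's filterByExpr (minimum count 10). The 12 libraries were fitted together in edgeR 4.0.16 (R 4.3.3) with a mean per group, TMM factors and 8 residual degrees of freedom. The robust quasi-likelihood test was adjusted by Benjamini-Hochberg over all tested genes (threshold 0.05), and a standard error (SE) is the log2 fold change divided by the square root of F. The interaction is the combination over tazemetostat minus ipatasertib over DMSO. CPM uses TMM-scaled totals, and floors of 3 counts cover counting error only. The procedure was tested on simulated counts with the same spread set for every gene and no difference of the A libraries. That test therefore says nothing about the effect of the A libraries. The 34 gene lists are described by counts and medians, with no set test. Some genes, such as IRS2, CTGF and AXL, are in more than 1 list, so the lists are not independent. By rule, the genes named are 30 panel genes, the 12 largest rises and 12 largest falls, the 8 largest interactions each way and up to 4 called genes per list (at least 5 CPM). Some of these are not reported here, and other list genes named were chosen after their values were seen. The members, lists and rules were chosen with earlier results of these data known.

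The gene results were recomputed with RLE factors, with library totals, with DESeq2 1.42.0, without the filter, with at least 50 counts in 3 libraries, on the 2 groups alone (not for the interaction), with the letter as a block, without single libraries, without the 4 A libraries, and with a log2 threshold of 1. Reads outside genes were recomputed with another denominator and without single libraries.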

Additional observations from a re-analysis of the deposited data

Results flagged for a closer look

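Among the genes described above, 87 had an ipatasertib step that differed with and without tazemetostat by the interaction test of edgeR, 47 above 0 and 40 below 0. The count is fixed in part by the choice of genes, since 8 in each direction were named for the size of their interaction, and over all genes 5.96% were above and 6.01% below 0. Of these calls, 58 held under each of the 19 alternative fits that give a p and 29 were lost under at least 1, those of KRT14, FBXO32, CDKN1B, MET, FGFR1, DDR1, PTK7, SPRY4, CTGF, CYR61, THBS1, FASN, MCM4, MCM5, CENPF, POLR1A, PYCR1, BMF, OAS3, COL12A1, S100A9, CLCA2, CLEC2B, PSG9, GAS1, ACTBL2, SLC23A1, MUC6 and HIST1H4C. Their interaction values, on the log2 scale, are given by group. Among FOXO targets and growth signalling genes, the interaction was 0.67 for IRS2, 0.57 for KLF6, 0.60 for SESN3, 0.47 for GADD45A, 0.34 for CDKN1B and 0.35 for MET, and below 0 it was -0.34 for FBXO32, -0.65 for TYRO3, -0.50 for FGFR1, -0.47 for DDR1, -0.37 for PTK7, -0.49 for EPHB4, -0.76 for SPRY4 and -0.94 for MYC. Among early response, YAP and matrix genes it was 0.92 for ANKRD1, 0.33 for CTGF, 0.31 for CYR61, 0.37 for THBS1, 0.72 for BTG2, 1.29 for TGFBI, 0.46 for COL12A1, 0.89 for FN1 and -0.68 for NOV. In metabolism it was -0.39 for FASN, 0.46 for INSIG1, 0.35 for HMGCS1, 1.21 for SC5DL, 0.52 for IDI1, 0.42 for CYP51A1, 0.72 for STARD4 and 0.84 for ADM. Replication genes had -0.66 (CCNE1), -0.52 (E2F1), -0.74 (MCM2), -0.46 (MCM3), -0.29 (MCM4), -0.42 (MCM5), -0.56 (MCM6), -0.48 (MCM7) and 0.58 (RFC3). Mitosis genes had 0.74 (TOP2A), 0.41 (CENPF), 0.83 (CENPE), 0.50 (CCNB1), 0.43 (CCNB2), 0.57 (CDK1), 0.51 (CCNA2) and 0.70 (TTK). Genes of ribosomes, amino acids, stress and lysosomes had -0.66 (POLR1A), 0.46 (NPM1), -0.38 (PYCR1), -0.44 (XBP1) and -0.55 (CTSF). Mammary and epidermal genes had 0.53 (GATA3), -0.63 (MUC1), -0.57 (SPDEF), -0.53 (KRT16), -0.34 (KRT14), -0.65 (KRT5) and -0.51 (S100A9). Involution and immune genes had 0.61 (TIMP3), 0.99 (CEBPD), -0.40 (BMF), 0.59 (IL6ST) and -0.39 (OAS3). Of the genes with the largest changes, the interaction was -0.72 for CLCA2, 1.63 for CLEC2B, 0.62 for PSG9, 0.92 for TFPI2, 1.40 for STON1, 0.47 for GAS1, 1.25 for ACTBL2 and -0.96 for SLC23A1. The genes named for the size of the interaction had 2.05 (FKBP9L), 2.02 (BCAT1), 2.00 (SEMA6A), 1.87 (NEXN), 1.59 (C2CD4A), 1.31 (MUC6), -1.56 (SNCAIP), -1.28 (MGAT5), -1.28 (RHBDL3), -1.25 (GPR124), -1.21 (ATP2A3), -1.15 (ALDH3A1), -1.06 (MUC5B) and -1.08 (HIST1H4C).

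Reads outside genes, a measure that the gene comparisons do not use, made up a larger share of the combination libraries than of the tazemetostat libraries, by 3.94 percentage points. With ipatasertib alone the share was 24.9% ± 0.949, against 21.7% ± 1.4 with DMSO (SD, n = 3 each), a difference of 3.25 points with an exact two-sided permutation p of 0.1, the smallest this design allows.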

How the results depend on the processing

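The counts for the combination against tazemetostat and for ipatasertib against DMSO stayed within 1.5 times under each alternative except the threshold of 1 on the log2 scale (590 higher and 308 lower, and 479 and 209; 45 and 42 for the interaction), and no gene called in the main fit changed sign. PTK7, which did not pass (0.01), passed as lower without the 4 A libraries (-0.15). The interaction counts depended on the libraries: 2605 above and 2847 below 0 without the 4 A libraries, and 1369 below 0 with library totals. Left out 1 at a time, libraries gave 357 to 2017 above and 262 to 1726 below 0 (main 869 and 875): 2017 and 1664 without tazemetostat A, 1505 and 1726 without combination A, 412 and 262 without combination B, 407 and 307 without tazemetostat B, 492 and 397 without tazemetostat C, 553 and 429 without ipatasertib A, 539 and 497 without ipatasertib C, 512 and 433 without DMSO B, and 357 and 319 without DMSO C. The cause was not tested. Same-letter libraries of the combination and tazemetostat deviated apart (correlations of -0.3, -0.187 and -0.0916 for A, B and C), so no pairing by letter was used in the main fit; with the replicate block, 6226 genes were called in the combination against tazemetostat (main 6747), and 533 interactions above and 479 below 0. Library totals moved the share of called genes that were higher to 57.9% for ipatasertib against DMSO (main 50.9%). In combination B, the library with the fewest counts, 3 counts correspond to 0.227 CPM, which limits what can be said of low genes.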
